A study of Mus musculus with 4 samples.

Results

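The 46 genes described here are mouse genes of G2 and mitosis, taken as a named list and matched by symbol in single-cell RNA libraries of CD8 T cells. All 46 were among the 32285 features of the files. No threshold on measured values was applied to make a gene a member, but the list was drawn up with earlier results of these data known. The tested cells came from a group called C6M9, whose labels give low affinity GP33, and were set against those of M9, labelled with high affinity. GP33 is a peptide of a viral glycoprotein that CD8 T cells recognise. In both groups the cells were positive for CD8, CD44 and CD90.1 and had been sorted from the lymph node draining a tumour of C57BL/6 mice, 14 days after implantation. CD44 marks T cells that have met antigen, and CD90.1 is an allelic form of the surface protein encoded by Thy1. Each group had 2 libraries (n = 2 per group throughout). Nodes of 35 mice were pooled for C6M9 and of 10 mice for M9, with no statement of how they were divided. Libraries of 1 group may therefore come from the same animals, and the errors and p-values below may then measure technical spread only.

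Cells enter mitosis when CDK1, bound to a B-type cyclin, becomes active. Aurora and checkpoint kinases then govern how spindle fibres attach at the kinetochores, and the anaphase promoting complex ends mitosis by marking for destruction B-type cyclin and securin, the inhibitor of the protease that cleaves the cohesin between chromatids. The messages of these proteins are made late in the cycle, under the complexes that carry MYBL2 and FOXM1, and are held down in resting cells by the DREAM complex. After antigen, CD8 T cells divide fast, and these genes are the usual sign that they are doing so.

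Promoters of many such genes share 2 short elements, the cell cycle genes homology region (CHR; searched as TTTGAA and TTCGAA) and the CCAAT box, which binds NF-Y. Both strands were searched in 300 bases, from 250 before to 50 after each start in RefSeq (GRCm38.p6), where 40 of the 46 members had an entry. A CHR was found for 77.5% of those 40 members, against 21.7% of all 27025 genes of the table. A CCAAT box was found for 77.5% of the members, against 41.1% of all genes, and 2 or more CCAAT boxes for 65.0%, against 13.3%. Both elements were found for 62.5% of the members, against 8.61% of all genes. Different elements overlapped once in the members' windows. The 100 bases before the start are shown for 8 of the members named in the results below, with both elements in capitals on either strand.
Cdk1: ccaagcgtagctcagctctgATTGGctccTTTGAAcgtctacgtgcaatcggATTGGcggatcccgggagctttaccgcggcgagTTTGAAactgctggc
Cdc20: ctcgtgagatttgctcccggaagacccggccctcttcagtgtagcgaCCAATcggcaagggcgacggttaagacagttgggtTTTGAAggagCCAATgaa
Ube2c: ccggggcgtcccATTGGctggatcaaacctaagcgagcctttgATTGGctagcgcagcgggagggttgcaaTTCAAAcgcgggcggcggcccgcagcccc
Top2a: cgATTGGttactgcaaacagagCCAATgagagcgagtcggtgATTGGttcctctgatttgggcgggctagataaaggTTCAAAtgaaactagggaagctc
Hmgb2: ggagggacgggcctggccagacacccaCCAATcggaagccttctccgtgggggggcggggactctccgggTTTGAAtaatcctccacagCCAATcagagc
Ccnb2: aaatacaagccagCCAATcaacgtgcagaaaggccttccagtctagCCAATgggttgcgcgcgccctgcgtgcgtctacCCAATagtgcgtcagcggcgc
Tubb4b: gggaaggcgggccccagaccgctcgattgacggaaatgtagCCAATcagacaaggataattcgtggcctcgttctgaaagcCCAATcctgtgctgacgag
Birc5: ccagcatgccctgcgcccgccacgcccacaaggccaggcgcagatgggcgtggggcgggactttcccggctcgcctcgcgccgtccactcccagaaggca
These stretches lie at chr10:69352913-69353012 on the minus strand (Cdk1), chr4:118437344-118437443 minus (Cdc20), chr2:164769829-164769928 plus (Ube2c) and chr11:99024190-99024289 minus (Top2a). The others lie at chr8:57511743-57511842 plus (Hmgb2), chr9:70421555-70421654 minus (Ccnb2), chr2:25224703-25224802 minus (Tubb4b) and chr11:117849137-117849236 plus (Birc5). The first 5 hold both elements, Ccnb2 and Tubb4b hold CCAAT boxes alone in this stretch, and Birc5 holds neither. A match is a description of the letters and says nothing of binding.

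The files gave 73379913 and 65721043 UMIs (unique molecular identifiers, each a captured transcript) for the C6M9 libraries and 79174627 and 33680632 for the M9 libraries. After filters, 2889 and 1734 T cells were kept in C6M9 and 4101 and 1199 in M9. Their median depth was 13993 and 21476 UMIs in C6M9 and 13205 and 20024 in M9, so both replicates numbered 2 were deeper per cell. Cd8b1, the defining co-receptor chain, had a UMI in 99.0% and 99.2% of C6M9 T cells and in 99.6% and 99.3% of M9 T cells. Thy1 was found in 74.6% and 82.8% against 61.3% and 78.0%, and Cd4 in at most 2.90% of the T cells of any library. At most 4 cell barcodes were shared by any pair of libraries.

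Within these T cells the members were concentrated in 3 of 10 clusters. Clusters led by Ccnb2 and by Hist1h2ap (a histone gene of S phase) were named cycling-like from their markers and held 1853 of 9923 T cells. The markers of that class include the members Mki67, Top2a, Birc5, Hmgb2, Ube2c and Cdk1. The third cluster, led by Gzma, the gene of granzyme A, was named effector-like by the same rule, with 332 cells. The 46 members, summed as UMIs per 1000000 of the cluster (CPM), came to 9228 and 8394 in C6M9 and 8887 and 10318 in M9 in the Ccnb2-led cells. The Hist1h2ap-led cells held 12249 and 10691 CPM of the members in C6M9 and 13587 and 13562 in M9. The Gzma-led cells held as much, at 11576 and 10119 CPM in C6M9 and 12972 and 12631 in M9. No other cluster passed 2492 CPM in any library. Because the clusters were made from the same cells and genes, these levels describe the clusters and were not tested. The Gzma-led cells are few in M9, at 115 and 13 cells against 137 and 67 in C6M9.

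**Figure D1:**
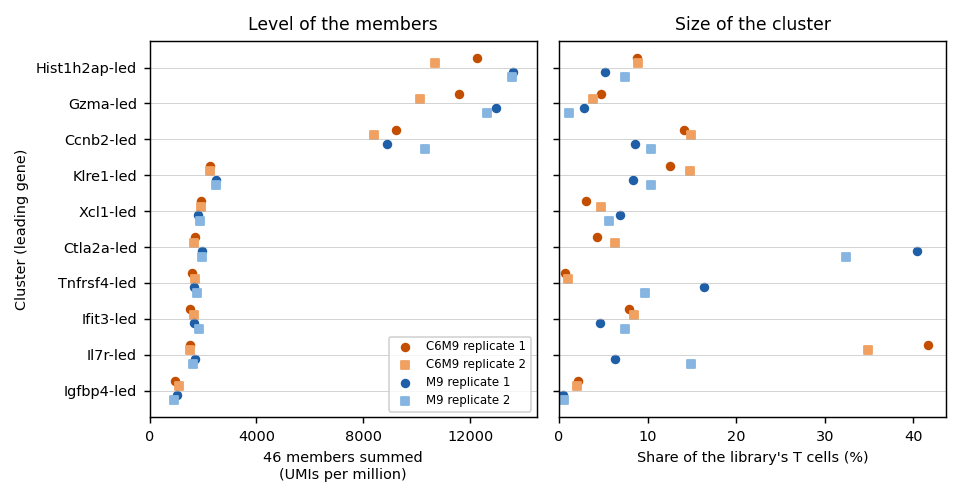
The left panel plots the summed level of the 46 members (UMIs per 1000000, x axis) in each T cell cluster (y axis, named by its leading gene), and the right panel the share of each library's T cells in that cluster (%). Points are libraries; the members stood at 8394 UMIs per 1000000 or more in the Hist1h2ap-led, Gzma-led and Ccnb2-led clusters and at 2492 or less in the others.

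How far a member was confined to those 3 clusters differed widely. Hmmr, which encodes a spindle-associated receptor, had 99.0% of its T cell UMIs there, with a mean of 113 CPM in cycling-like cells and 0.885 CPM in the T cells of the other clusters. For Cdk1 the share was 96.7%, at 106 and 2.86 CPM. The 9 chromatin and envelope genes ran from 41.5% for Smc4 to 96.0% for Mki67. Between them, Hmgb2, which encodes a DNA-bending protein, had 85.8% of its UMIs there, Tmpo, a nuclear envelope gene, 75.4% and Top2a 93.5%. Low shares also stood in other roles, at 67.2% for the kinetochore gene Hjurp and 80.7% for the motor gene Kif20b. All these shares are to be read against the UMIs of all genes. In C6M9, 30564085 of 67672214 and 28784829 of 60695583 T cell UMIs lay outside the 3 clusters. In M9 it was 48171588 of 71708108 and 20179752 of 32311461. Smc4, the condensin ATPase gene, was at 570 CPM in cycling-like cells and 622 CPM in the other clusters. Its mean level reached 1041 CPM in the effector-like cluster led by Klre1, where the members' sum was low. Smc4 is thus a member whose level in these T cells did not follow the others.

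Cycling-like cells were then divided by scores of S phase genes and of mitosis genes outside the list, so that the members did not set the cuts. Some members were, however, among the markers that named the class divided here. Cells low in S and high in mitosis genes (the late range) were set against cells high in S and low in mitosis genes (the early range). The cuts were medians, and 225 cells for the S phase score and 251 for the mitosis score lay within 10% of them, so these are ranges and not cell types. All 46 members were higher in the late than in the early range on average. The cut on other mitosis genes favours this direction, so it describes the ranges and is not a test. Cenpf, a kinetochore protein gene, had a log2 ratio of 3.84 on average, from 3.39 to 4.36 over the 4 libraries. Next came Nusap1 (3.82), Aurka (3.59), Ube2c (3.54) and Hmmr (3.22). At the other end stood Rangap1 (0.44), Tmpo (0.52), Anp32e (0.58), Hmgb2 (0.81) and Smc4 (0.85), all from the chromatin and envelope group. Cdk1 (1.39), Mki67 (1.50), Top2a (1.58) and Ccnb2 (1.58) lay between them. The order of genes whose library ranges overlap, which is most neighbours, is not resolved.

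**Figure D2:**
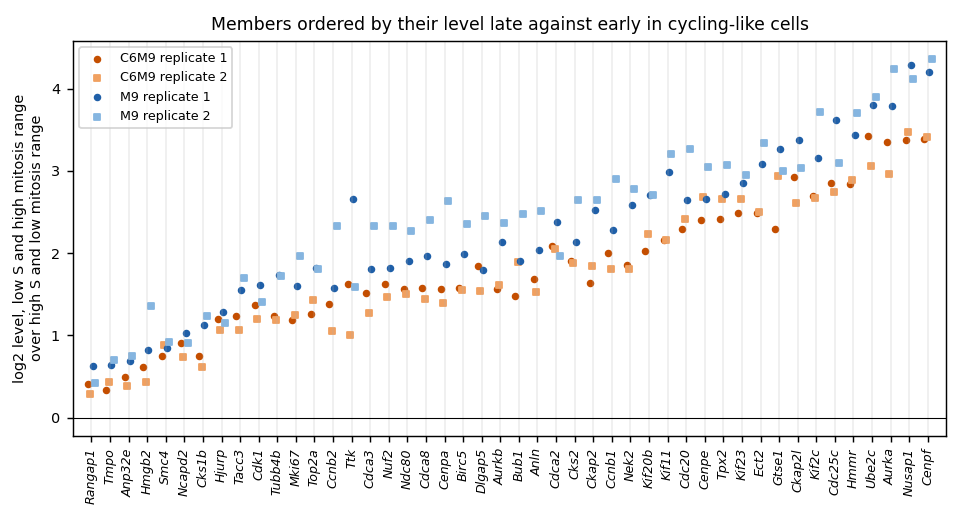
Each member's log2 level in the late range over its level in the early range of cycling-like cells (y axis), ordered by the mean of the 4 libraries (x axis); points are libraries. Rangap1 (mean 0.44) and other chromatin and envelope genes sit at the left, and Aurka (3.59), Nusap1 (3.82) and Cenpf (3.84) at the right.

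The first comparison was over all T cells. Raw UMIs were summed per library and compared with edgeR's quasi-likelihood test, with Benjamini-Hochberg adjustment over all 13654 genes tested. In C6M9, 5 of the 46 members rose at an adjusted p under 0.05 and 0 fell, while 1.59% of all genes tested rose and 4.04% fell. At an unadjusted p under 0.05, 27 members were higher and 0 lower (10.5% and 13.4% of all genes). DESeq2 called 17 members higher and 0 lower (3.65% and 4.29% of all genes). The members' log2 differences (C6M9 minus M9) had a median of 0.33, against -0.02 over all genes tested, and 45 of 46 were above 0. Both C6M9 libraries stood above both M9 libraries for 32 members (26.1% of all genes did so), below them for 1 (29.6% of all genes), and the groups overlapped for the other 13. On GRCm38 (GENCODE M21) the 5 protein-coding genes that rose lie at chr11:117849251-117855743 (Birc5, plus strand), chr9:70407692-70421547 (Ccnb2, minus), chr2:25222160-25224702 (Tubb4b, minus), chr6:124829547-124833701 (Cdca3, plus) and chr2:164769898-164778822 (Ube2c, plus). The number that rose was 0 when C6M9 replicate 1 was left out (0.403% of all genes then rose) and 8 when C6M9 replicate 2 was (0.61%). Leaving out M9 replicate 1 gave 8 (4.61%) and leaving out M9 replicate 2 gave 27 (3.52%).

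Among the entry kinase, cyclin and adaptor genes 2 of 8 rose. Ccnb2, a B-type cyclin gene, was at 122 and 104 CPM in C6M9 and at 74.3 and 80.0 CPM in M9 (here and below CPM is TMM-scaled), a log2 difference of 0.55 ± 0.10 (SE, adjusted p = 0.0212). Cdca3, which encodes a trigger of mitotic entry, had 88.7 and 74.0 CPM in C6M9 and 57.5 and 58.2 in M9, a difference of 0.49 ± 0.10 (adjusted p = 0.0333). For both genes the lower C6M9 library stood above the higher M9 library. Cdk1, the entry kinase gene, had 60.8 and 51.6 CPM in C6M9 and 36.8 and 45.7 in M9, a difference of 0.45 ± 0.13 that missed the threshold (adjusted p = 0.0839). Ccnb1, the other B-type cyclin gene, had 49.999 and 37.1 CPM in C6M9 and 31.8 and 36.4 in M9, where the nearest libraries almost met (adjusted p = 0.187). Cks2, an adaptor subunit of the kinase, was at 158 and 144 CPM in C6M9 and 125 and 112 in M9 (0.35 ± 0.09, adjusted p = 0.0752).

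In the small group of anaphase promoting complex and passenger complex genes, 2 of 4 rose. Birc5 encodes survivin, the passenger subunit that brings Aurora B to the centromere. Its level was 201 and 172 CPM in C6M9 and 124 and 121 in M9, a log2 difference of 0.61 ± 0.10 (adjusted p = 0.0147), the largest of the members over all T cells. Ube2c, the ubiquitin carrier of the anaphase promoting complex, had 126 and 105 CPM in C6M9 and 83.7 and 82.0 in M9 (0.48 ± 0.10, adjusted p = 0.0356). Cdc20, which activates that complex, had 64.0 and 50.3 CPM in C6M9 and 39.8 and 43.5 in M9, with an adjusted p of 0.0733. The mitotic kinase and checkpoint genes had differences of 0.34 to 0.47 and 0 of 5 passed. Of these, Aurkb, the Aurora B kinase gene, was at 36.5 and 33.2 CPM in C6M9 and 22.4 and 30.6 in M9 (0.40 ± 0.14, adjusted p = 0.145).

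Of the 11 spindle and motor genes 1 rose, Tubb4b, a beta-tubulin gene. It was at 307 and 255 CPM in C6M9 and 188 and 199.7 in M9, a log2 difference of 0.53 ± 0.11 (adjusted p = 0.0328). None of the 6 kinetochore and centromere genes passed. Cenpa, the centromeric histone gene, had 180.3 and 167 CPM in C6M9 and 149 and 138 in M9, and Hjurp, its chaperone gene, 72.7 and 72.1 in C6M9 and 68.9 and 73.9 in M9. The groups did not overlap for Cenpa (0.27 ± 0.09, adjusted p = 0.114) and did for Hjurp (0.02 ± 0.08).

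None of the 9 chromatin, condensin and envelope genes passed either. Hmgb2 had 2570.1 and 2263 CPM in C6M9 and 1747 and 1875 in M9 (0.42 ± 0.12, adjusted p = 0.0893). Mki67, which encodes the proliferation marker Ki-67, had 342 and 249 CPM in C6M9 and 209 and 258 in M9, and Top2a, the topoisomerase that untangles chromosomes, 292 and 246 against 194 and 247. For both of these common markers of division M9 replicate 2 stood above C6M9 replicate 2, and neither passed (adjusted p = 0.253 for Mki67 and 0.24 for Top2a). Smc4 alone was lower in both C6M9 libraries, at 554 and 571 CPM against 606 and 629 CPM in M9 (-0.13 ± 0.09, adjusted p = 0.419). Among the 3 cytokinesis genes Kif23, a motor of the midzone, had 42.7 and 40.2 CPM in C6M9 and 31.0 and 39.2 in M9, and none passed.

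**Figure D3:**
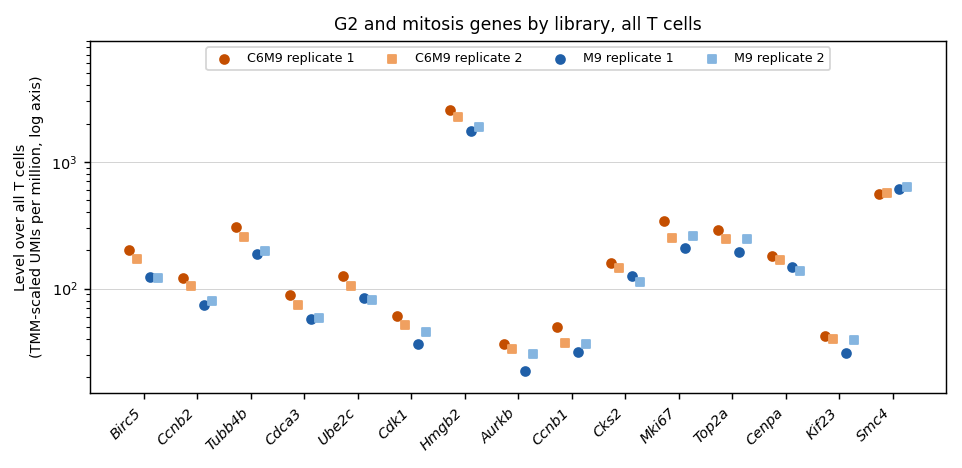
Level over all T cells (TMM-scaled UMIs per 1000000, log y axis) of the members described in the text, in each library (points), ordered from the largest to the smallest log2 difference (x axis). Birc5, Ccnb2, Tubb4b, Cdca3 and Ube2c, at the left, passed the test; Smc4, at the far right, is the member with both C6M9 libraries below both M9 libraries.

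A sum over all T cells cannot tell more cells with the message from more message per cell, so the cells themselves were counted. Cycling-like cells made up 22.9% and 23.8% of T cells in C6M9 and 13.8% and 17.8% in M9, or 23.3 ± 0.663% against 15.8 ± 2.88% (SD). The difference was 7.54 percentage points, and the exact two-sided permutation test gave p = 0.333, the smallest that 2 against 2 libraries allow. When cell cycle genes were left out of the clustering, the shares were 21.5% and 22.7% in C6M9 and 13.2% and 18.1% in M9. With the Gzma-led cells added, chosen after the data were seen, they were 27.6% and 27.7% against 16.6% and 18.9%. In each case both C6M9 libraries stood above both M9 libraries. Cycling-like cells were also deep, with median UMIs of 35071 and 48875 in C6M9 and 30731 and 43505 in M9. They supplied 43.5% and 43.1% of T cell UMIs in C6M9 and 26.8% and 34.9% in M9.

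Thinning each cell to 2000 UMIs put libraries of unlike depth on one scale, with at most 9 shallower cells left out of a library. At that depth 25.01% and 24.2% of C6M9 T cells held 10 or more UMIs of the members, against 16.0% and 18.1% of M9 T cells. Cells with 20 or more made up 14.9% and 14.5% in C6M9 and 8.70% and 11.6% in M9. The median cell held 4 member UMIs in every library, a whole number too coarse to show a small shift. Birc5 had a UMI in 14.7% and 13.6% of thinned C6M9 T cells and in 8.46% of those of each M9 library. In the T cells outside all 3 member-rich clusters the share was 1.20% and 1.12% in C6M9 and 1.20% and 1.13% in M9. As Birc5 was among the markers that named the cycling-like class, a low share there was partly set by the choice of cells. Unthinned, Birc5 was seen in a mean of 32.1% of C6M9 T cells and 21.4% of M9 T cells. Smc4 again went the other way, at 58.8% and 60.8% of thinned C6M9 T cells and 65.3% and 66.8% of M9 T cells. Over the 46 members, 41 were seen in a larger mean share of thinned C6M9 T cells, with a median difference of 0.894 points. Within cycling-like cells 14 were, and in the T cells outside the 3 clusters 19 were. This count was not made over all genes.

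**Figure D4:**
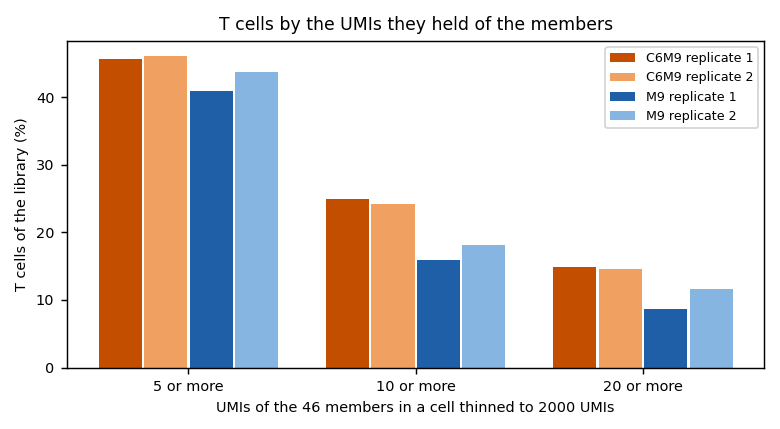
Share of each library's T cells (%, y axis, from 0) that held at least 5, 10 or 20 UMIs of the 46 members after thinning to 2000 UMIs per cell (x axis); bars are libraries. At 10 or more the C6M9 bars stand at 25.01% and 24.2% and the M9 bars at 16.0% and 18.1%.

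Within cycling-like cells the direction was the other one, and no member passed. Of 12033 genes tested there with edgeR, 0.997% rose and 0.814% fell in C6M9, and of the members 0 rose and 0 fell. DESeq2 likewise called 0 members, where 1.12% of all genes were higher and 0.648% lower. The members' log2 differences had a median of -0.18, against -0.00064 over all genes tested, 44 of 46 were below 0, and 17 had an unadjusted p under 0.05, all lower (7.2% of all genes were higher and 7.5% lower at that threshold). For 26 members both C6M9 libraries stood below both M9 libraries (22.4% of all genes did so), for 0 above (23.3% of all genes), and for 20 the groups overlapped. The difference closest to a rise was that of Birc5, at 346 and 319 CPM in C6M9 and 341 and 312 in M9 (0.02 ± 0.10, adjusted p = 0.955). Ccnb2 had 212 and 188 CPM in C6M9 and 197 and 201 in M9, and Tubb4b 462 and 393 against 428 and 445. The members that had risen over all T cells thus had overlapping groups in the cycling-like cells.

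By role, the lowest medians there were those of the cytokinesis (-0.33), spindle (-0.29) and kinetochore genes (-0.25). Anln, the gene of anillin, a scaffold of the contractile ring, had the lowest, at 18.4 and 15.04 CPM in C6M9 and 18.9 and 28.1 in M9 (-0.47 ± 0.18, adjusted p = 0.243). Nusap1, which encodes a spindle-bundling protein, had 128 and 123 CPM in C6M9 and 147 and 169 in M9 (-0.33 ± 0.10, adjusted p = 0.137). Tpx2, the activator of Aurora A on the spindle, had 113 and 103 CPM in C6M9 and 127 and 144 in M9 (-0.33 ± 0.10, adjusted p = 0.137). In these 3 genes M9 replicate 2 was the highest library and C6M9 replicate 2 the lowest. Mki67 had 587 and 459 CPM in C6M9 and 565 and 652 in M9, with overlapping groups. Without M9 replicate 1, 11 members were lower at the threshold (2.43% of all genes were), and without any of the other 3 libraries 0 were. With the Gzma-led cells added to the class, of the members 0 rose and 0 fell, against 0.155% and 0.358% of all genes, and 16 had an unadjusted p under 0.05, all lower (4.94% of all genes were higher and 6.37% lower).

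The late range of the cycling-like cells held 124 and 86 in C6M9 and 96 and 49 in M9. There the members summed to 16408 and 13669 CPM in C6M9 and to 18588 and 20582 in M9. Of 9790 genes tested with edgeR, 0.0409% rose and 0.0511% fell in C6M9, and 0 members did either. DESeq2 called 0 members too, where 0.112% of all genes were higher and 0.153% lower. All 46 differences were below 0, with a median of -0.33 and 23 at an unadjusted p under 0.05 (4.91% of all genes were higher and 5.07% lower at that threshold). The 62 other mitosis genes that made the cut had a median of -0.31 there, with 5 above 0. Of 43 S phase genes 37 were above 0, with a median of 0.15. The late range thus differed between the groups in the scored genes themselves. How far this entered the members' differences was not tested. Both C6M9 libraries were below both M9 libraries for 37 members, against 20.2% of all genes tested, and above them for 0, against 21.3%. Kif23 had 126 and 116 CPM in C6M9 and 167 and 189 in M9 (-0.55 ± 0.13, adjusted p = 0.185), the lowest adjusted p of a member. Cenpa had 549 and 447 CPM in C6M9 and 658 and 813 in M9 (-0.56 ± 0.14, adjusted p = 0.224). The extremes were Anln, at 27.9 and 19.3 CPM in C6M9 and 32.0 and 41.7 in M9 (-0.62 ± 0.23), and Smc4, at 726 and 771 against 726 and 796 (-0.02 ± 0.10). Without M9 replicate 1, 3 members were lower at the threshold (0.446% of all genes were). Because all scaled values are relative to the other genes of the same cells, this comparison gives relative and not absolute levels. Median depth in the late range was 29595.5 and 43829.5 UMIs in C6M9 and 28869 and 29266 in M9, and its part in these differences was not tested.

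In T cells outside the cycling-like class, 15 of the 46 members rose in C6M9 and 0 fell, while 3.44% of 12921 genes tested rose and 5.08% fell (edgeR). At an unadjusted p under 0.05, 38 members were higher and 0 lower (12.3% and 13.9% of all genes). DESeq2 called 17 members higher and 0 lower (4.42% and 4.17% of all genes). The median log2 difference was 0.95, against -0.02 over all genes tested. Both C6M9 libraries were above both M9 libraries for 41 members (27.4% of all genes did so) and below for 1 (30.7% of all genes). Entry genes gave 5 of the 15 and spindle genes 4. Cdk1 was at 25.1 and 17.9 CPM in C6M9 and 12.3 and 7.44 in M9 (1.09 ± 0.23, adjusted p = 0.0294), and Aurkb at 15.1 and 10.2 in C6M9 and 6.28 and 5.08 in M9 (1.14 ± 0.20, adjusted p = 0.0154). Bub1, a checkpoint kinase gene, rose by 1.23, Cdc20 by 1.18, Tpx2 by 1.13, Gtse1 by 1.08 and Cdca8, a passenger complex gene, by 1.00. Kif2c, a microtubule-depolymerising motor gene, had the largest rise, at 6.54 and 4.69 CPM in C6M9 and 2.89 and 1.54 in M9 (1.27 ± 0.29, adjusted p = 0.0361). Ccnb2 and Ckap2, a spindle pole gene, each rose by 0.99, and Ttk had a larger difference that missed the threshold (1.35 ± 0.43, adjusted p = 0.0915). Smc4 was the lowest, at 546 and 568 CPM in C6M9 and 625 and 655 in M9. The count of rises was 10 without C6M9 replicate 1 (1.01% of all genes then rose) and 34 without C6M9 replicate 2 (2.34%). Leaving out M9 replicate 1 gave 41 (12.8%) and leaving out M9 replicate 2 gave 20 (4.82%).

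The T cells outside the cycling-like class include the Gzma-led cells, which made up 4.74% and 3.86% of T cells in C6M9 and 2.80% and 1.08% in M9. There Mki67 stood at 637 and 451 CPM in C6M9 and 720.2 and 809 in M9, and Cdk1 at 109 and 93.4 in C6M9 and 115 and 121 in M9, as in cycling-like cells. With that cluster left out as well, a setting added after the data were seen, 43 members could be tested, 2 rose and 1 fell (edgeR), where 3.33% of all genes rose and 5.41% fell. Of the 15 members that had risen, Tubb4b alone did so here, and Kif2c could not be tested. The median difference was then -0.09, and 17 of 43 were above 0. Ube2c rose, at 18.2 and 17.96 CPM in C6M9 and 12.3 and 10.1 in M9 (0.67 ± 0.12, adjusted p = 0.00705). In Il7r-led cells Ube2c stood at 17.3 and 19.4 CPM (not TMM-scaled) in C6M9 and 35.9 and 17.5 in M9. In Ctla2a-led cells it stood at 14.5 and 8.24 against 9.96 and 8.92, so the groups overlapped in both. Il7r-led cells made up 41.7% and 34.9% of T cells in C6M9 and 6.36% and 14.9% in M9. For Ctla2a-led cells the shares were 4.33% and 6.29% against 40.4% and 32.4%. The part of this mix in the rise was not tested. Tubb4b was at 76.0 and 73.7 CPM in C6M9 and 57.0 and 50.5 in M9 (0.47 ± 0.09, adjusted p = 0.0135). Top2a fell, at 22.6 and 25.4 CPM in C6M9 and 33.7 and 29.95 in M9 (-0.41 ± 0.11, adjusted p = 0.0394). Cdk1 was at 3.25 and 2.40 CPM in C6M9 and 3.06 and 2.75 in M9, with overlapping groups.

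**Figure D5:**
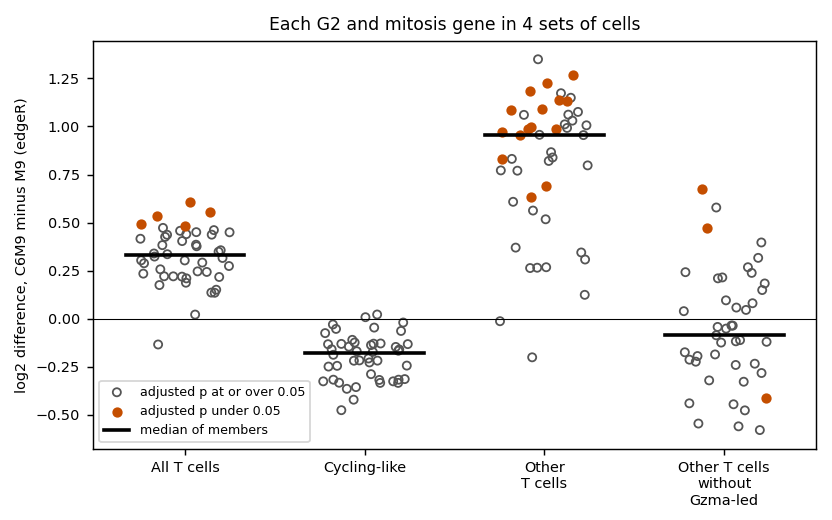
Log2 difference, C6M9 minus M9 (edgeR, y axis), of each member (points) over all T cells, in cycling-like cells, in the other T cells and in the other T cells without the Gzma-led cluster (x axis); filled points passed the test and black bars are medians. The medians are 0.33, -0.18, 0.95 and -0.09 from left to right.

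Whether the difference itself varied between cycling-like and other T cells was tested with library and class as terms and the product of class and group. It was lower in cycling-like cells for 41 of 46 members and higher for 0, where 5.32% and 2.38% of the 12873 genes tested were lower and higher (edgeR). Ttk had the largest change (-1.55 ± 0.38, adjusted p = 0.0331), and Smc4 the only positive one (0.17 ± 0.06, adjusted p = 0.115). The median change over the members was -1.07. It was -0.98 and -1.21 without C6M9 replicate 1 or 2, and -1.59 and -0.78 without M9 replicate 1 or 2. Counted with the Gzma-led cells among the cycling-like ones, 2 members were lower and 0 higher, at 0.207% and 0.384% of all genes. These were Ube2c (-0.81 ± 0.11, adjusted p = 0.00523) and Kif23 (-0.70 ± 0.12, adjusted p = 0.0171), whose C6M9 minus M9 difference was smaller in dividing cells than elsewhere. The part of the mix of the remaining clusters in these 2 calls was not tested. Without C6M9 replicate 1 the count of 41 was 5 (0.57% of all genes), and without C6M9 replicate 2 it was 24 (1.44%).

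Other genes of the cycle were counted from lists that hold none of the members, over all T cells first. Of 62 other mitosis genes 4 rose, where 1.59% of all genes tested did, with a median log2 difference of 0.25. These were Ccna2 (0.54), which encodes cyclin A, Spc24 (0.52), Pbk (0.49) and Racgap1 (0.46). Plk1, the polo-like kinase gene, was at 31.6 and 26.1 CPM in C6M9 and 19.5 and 23.8 in M9 (0.42 ± 0.13, adjusted p = 0.11). Of 43 S phase genes 5 rose, with a median of 0.34. Rrm2, the regulated subunit of ribonucleotide reductase, led them, at 169 and 141 CPM in C6M9 and 96.4 and 101 in M9 (0.65 ± 0.10, adjusted p = 0.0137), followed by Exo1 (0.62), Cdc45 (0.53) and Tyms (0.44). In cycling-like cells the median was -0.26 for other mitosis genes and -0.13 for S phase genes. The signs of both medians were those of the members' medians in both sets of cells.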

How the data were processed

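The deposited matrices hold unnormalised UMI counts; the submitters' processing notes name Cell Ranger 6.0.0 and mm10 for them, and they came from Chromium 3′ libraries, per the labels' protocols. The annotation release is not given in the sources used here; members were located in GENCODE M21. Only barcodes kept as cells are listed, so free RNA was not measured. Of 11113 barcodes, 10324 passed (500 or more genes, 1000 or more UMIs, mitochondrial share up to 10%). Scrublet's own threshold marked under 0.5% of cells, so the 277 highest scores (0.8% per 1000 barcodes) were left out, and so were 124 B cell-like cells. Clustering (scanpy 1.11.5, 2000 variable genes, Leiden resolution 0.6) was named from marker sets. Counts were summed per library and class and tested with edgeR 4.0.16 (TMM, filterByExpr, quasi-likelihood, Benjamini-Hochberg at 0.05, two-sided), tested first on simulated data. DESeq2 1.42.0, no filter, other cell filters and clusterings, a replicate block and each library left out were alternatives. Named genes are the calls of each comparison (at most 10), its extremes, each role's highest gene, and 6 set by name; Cdc20, Hjurp, Cdca3 and other genes named for contrast were chosen after their values were seen. The members and lists were chosen with earlier results of these data known.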

Additional observations from a re-analysis of the deposited data

Results flagged for a closer look

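The C6M9 minus M9 difference of the members was tested between cycling-like and other T cells, and for 41 members it was lower in cycling-like cells (edgeR, product of class and group). The same held for 5.32% of all genes tested. On the log2 scale the change of the difference was -1.55 for Ttk, -1.51 for Kif2c, -1.44 for Tpx2, -1.43 for Bub1 and -1.40 for Ckap2l. For Cdca2 it was -1.38, for Cdc20 -1.35, for Anln -1.32, for Nusap1 -1.31 and for Aurkb -1.28. With the Gzma-led cells, which held the members at the level of cycling-like cells, counted among those cells, 2 members had a lower difference (0.207% of all genes did) and the median change over the 46 members was -0.07.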

How the results depend on the processing

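With 2 libraries a group, counts of calls moved with single libraries, and causes were not tested unless given. Members that rose over all T cells numbered 27 with no filter on low counts, where 812 of 20199 genes rose. They numbered 17 with DESeq2 (499 of 13654 genes) and 3 at most 5% mitochondrial UMIs (147 of 13429 genes). Members that fell in cycling-like cells numbered 4 with no filter, where 396 of 18345 genes fell. Rises outside that class numbered 40 with no filter, where 1043 of 19453 genes rose. They numbered 26 with doublets kept (492 of 12891 genes) and 28 at most 5% mitochondrial UMIs (430 of 12510 genes). With a library left out they numbered 10 to 41. Without the Gzma-led cells 2 rose and 1 fell, where 417 of 12522 genes rose and 677 fell. Falls in the late range numbered 11 with no filter, where 117 of 15520 genes fell. Members whose difference was lower in cycling-like cells numbered 5 to 45 with a library left out and 2 with the Gzma-led cells counted there, and 1 was higher when cell cycle genes were left out of the clustering.

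Over all T cells, like-numbered libraries did not deviate together (Pearson correlation of like-numbered deviations -0.000486 over 13654 genes). Pairing was not checked in the other sets of cells, and both replicates numbered 2 were deeper per cell. With a replicate block, 7 members rose over all T cells, where 269 of 13654 genes did. Outside the cycling-like class 38 members rose with the block, and 914 of 12921 genes did, against 444 without it. In the late range 3 members fell with the block, and 50 of 9790 genes did, against 5 without it.

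With a library left out, 0 to 2 of the 46 members changed sign over all T cells, 1 to 8 in cycling-like cells, 0 to 1 outside that class and 1 to 3 in the late range. Without the Gzma-led cells 24 of 43 did in the other T cells, and with them counted as cycling-like 12 of 46 did for the change between classes. Among the genes singled out by the naming rule, signs reversed for Birc5 in cycling-like cells (-0.046 to 0.089 with a library left out, -0.027 at most 5% mitochondrial UMIs, -0.0051 with the Gzma-led cells) and Smc4 in the late range (-0.088 to 0.045 with a library left out). So did, without the Gzma-led cells, Cdk1 (-0.051), Cdca8 (-0.11) and Ckap2 (-0.44) in the other T cells, and, with those cells counted as cycling-like, the change between classes of Anln (0.17) and Nusap1 (0.23). The difference in the cycling-like share stayed between 5.50 and 9.89 points in the settings run.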

Other observations

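Of 26 genes that restrain the cycle 2 rose and 1 fell over all T cells, where 1.59% of all genes tested rose and 4.04% fell. Klf2, a transcription factor gene of quiescent T cells, was at 447 and 388 CPM in C6M9 and 289 and 287 in M9 (log2 difference 0.54 ± 0.10, SE, adjusted p = 0.0243, edgeR). It was higher within cycling-like cells too, at 407 and 362 CPM in C6M9 and 278 and 279 in M9 (adjusted p = 0.0491). Klf2 was also among the markers of the memory-like class, the Il7r-led cluster. That cluster made up 41.7% and 34.9% of T cells in C6M9 and 6.36% and 14.9% in M9. Its part in the rise of Klf2 over all T cells was not tested. Rbl2, which encodes the pocket protein p130 of the DREAM complex, fell, at 39.8 and 39.3 CPM in C6M9 and 55.2 and 56.9 in M9 (-0.50 ± 0.08, adjusted p = 0.0129). Cdkn3, a phosphatase gene acting on cyclin-dependent kinases, rose by 0.50. Of 18 genes listed as drivers of the cycle or parts of its transcription complexes, E2f7 and Lin37 among them, 3 rose over all T cells. These were Ccne1 (0.60), Cdk2 (0.48) and E2f1 (0.45). Within cycling-like cells 1 gene of that list rose, where 0.997% of all genes tested did. It was Ccnd3, a D-type cyclin gene of lymphocytes, at 167 and 158 CPM in C6M9 and 116 and 122 in M9 (adjusted p = 0.0419, edgeR).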
